A study of Mus musculus with 12 samples.

Results

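The 8 genes described here encode transcription factors that steer blood progenitors into neutrophils and monocytes: Cebpa, Cebpb, Cebpd and Cebpe of the C/EBP family, and Spi1, Gfi1, Irf8 and Klf4. They were taken by name from the 19938 genes that had a probe set carrying a single gene symbol, and each of the 8 was represented by 1 probe set. Levels were log2 intensities from Affymetrix whole-transcript arrays of mouse bone marrow cells, with 3 biological replicates for each of 4 retroviral constructs. The constructs were CALM(400-648)+AF10 (677-758), here called the minimal fusion, which joins residues 400 to 648 of CALM to residues 677 to 758 of AF10; CALM-AF10, the full leukaemia fusion; CALM-AF10 ΔOM-LZ, the full fusion without the octapeptide motif and leucine zipper of AF10; and MIG, the empty vector. All groups shared the rest of the protocol. Adult C57/BL6/C3H mice had received 5-fluorouracil, which enriches marrow for stem and progenitor cells, their marrow was transduced on irradiated GFP+E86 virus-producing cells, and GFP-positive cells were sorted for RNA at 96 h after transduction. The sorted cells were a mixture of types, the constructs were expressed from a retrovirus rather than from the native gene, and the labels do not say which mice gave which replicate.

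C/EBP proteins are basic leucine zipper factors that bind DNA as pairs and act in sequence as granulocytes form. C/EBPα is needed for progenitors to become granulocyte and monocyte precursors, and C/EBPε acts later, in neutrophils that are filling their secondary granules. PU.1, the ETS factor encoded by Spi1, works with C/EBPα on receptor and granule genes; Gfi1 is a repressor that favours neutrophils, and Irf8 and Klf4 favour monocytes. In mice, C/EBPα is also required by leukaemias driven by Hoxa9, a target of CALM-AF10.

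None of the 8 genes passed limma's test between any 2 constructs after adjustment over all 23410 probe sets with a gene symbol. The lowest adjusted p was 0.7695, for Cebpb in the minimal fusion against MIG, and the lowest unadjusted p was 0.0015, for Cebpa in the minimal fusion against CALM-AF10. Cebpa was highest with CALM-AF10, then ΔOM-LZ, MIG and the minimal fusion, and it averaged 9.76 ± 0.18 in minimal fusion arrays and 10.22 ± 0.09 in CALM-AF10 arrays (SD, n = 3 each). For the other 7 genes at most 29.9% of the variance lay between constructs, against 74.4% for Cebpa and a median of 21.8% over all probe sets tested. Across the arrays Cebpe, Gfi1, Spi1 and Cebpd moved with neutrophil markers, and by Pearson's r less closely with C/EBPε target genes. For Gfi1 the r with neutrophil markers was 0.74, and 0.59 without its 2 farthest arrays. Its r was farther from 0 with T and NK cell markers (0.96) and with genes it is known to repress (−0.90). Cebpb and Klf4 moved with each other and with both neutrophil and monocyte markers. On deviations from construct means they also moved with fibroblast and producer cell markers (r = 0.82 and 0.84).

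Promoter sequences are shown for 3 of the genes, Cebpa because its level was set apart from the other 7, and Cebpb and Klf4 because their levels went together. Each is the 250 bases before the RefSeq start in GRCm38.p6, 5′ to 3′ on the gene's own strand, and 5 of the 8 genes were matched in the table used. Capitals mark matches on either strand to TATAAA (the element that binds TBP), GGGCGG (the GC box of Sp1), TGACG (the core of a cyclic AMP response element), GAGGAA (core bound by PU.1 and other ETS factors), CACGTG (E-box), CCAAT (the box of that name) and TTGCNNAA (C/EBP core).
Cebpa, chr7:35119043-35119292, plus strand: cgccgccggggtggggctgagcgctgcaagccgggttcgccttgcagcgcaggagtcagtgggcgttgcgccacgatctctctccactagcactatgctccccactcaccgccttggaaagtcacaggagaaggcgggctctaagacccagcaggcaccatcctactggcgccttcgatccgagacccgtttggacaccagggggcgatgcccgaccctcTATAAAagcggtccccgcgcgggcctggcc
Cebpb, chr2:167688665-167688914, plus strand: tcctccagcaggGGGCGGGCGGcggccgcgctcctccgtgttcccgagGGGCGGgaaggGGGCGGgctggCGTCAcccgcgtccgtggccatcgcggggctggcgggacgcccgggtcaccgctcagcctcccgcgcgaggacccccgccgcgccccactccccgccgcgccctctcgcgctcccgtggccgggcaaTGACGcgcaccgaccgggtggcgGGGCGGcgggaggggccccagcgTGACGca
Klf4, chr4:55532476-55532725, minus strand: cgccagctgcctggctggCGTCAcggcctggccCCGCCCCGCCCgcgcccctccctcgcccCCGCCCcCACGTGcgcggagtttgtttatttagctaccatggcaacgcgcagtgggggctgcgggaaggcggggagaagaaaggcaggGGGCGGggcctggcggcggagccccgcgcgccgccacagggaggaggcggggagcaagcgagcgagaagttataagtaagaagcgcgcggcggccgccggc
The Cebpa window held 1 match, a TATAAA element starting 30 bases before the start, a motif found in 12.4% of the 32851 promoter windows searched. The Cebpb window held 5 GC boxes, of which the first 2 overlap, and 3 copies of TGACG, the nearest starting 7 bases before the start. The Klf4 window held 4 GC boxes, 2 of them overlapping, 1 TGACG and 1 E-box. GC boxes were in 32.7% of all windows, TGACG in 17.8%, E-boxes in 6%, and both a GC box and TGACG, as in Cebpb and Klf4, in 8.4%. GAGGAA (23.3% of windows), CCAAT (33.8%) and TTGCNNAA (9.6%) had no match in these 3 windows. The windows were rich in G and C, at 66.4% for Cebpa, 81.6% for Cebpb and 74% for Klf4, against a median of 52.4% for all windows.

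**Figure D1:**
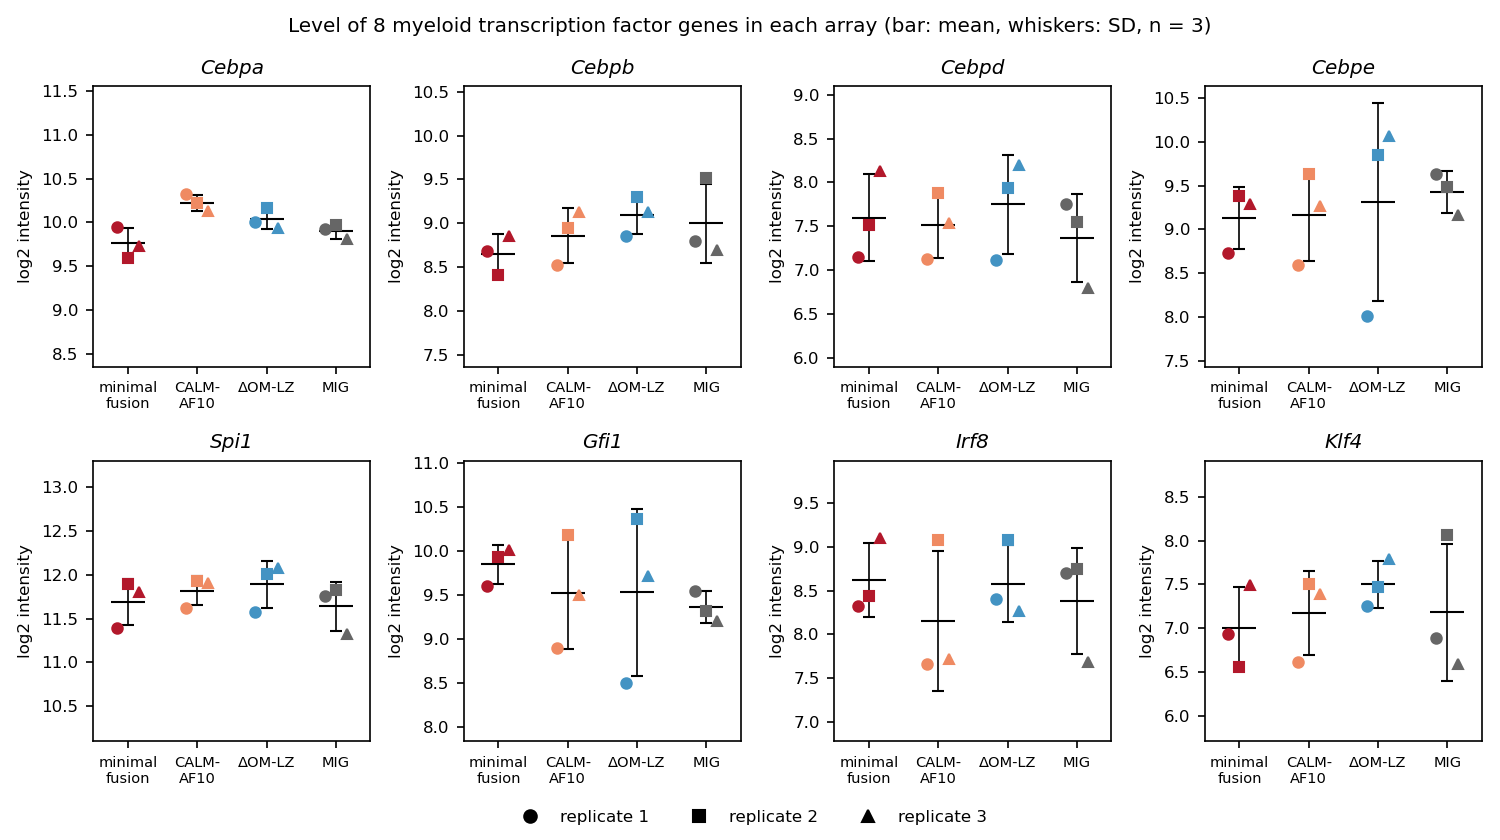
Log2 intensity of each of the 8 genes (vertical axis, the same span in every panel) in the 3 arrays of each construct (symbols by replicate number; bars and whiskers are mean and SD). The CALM-AF10 arrays for Cebpa, at 10.13 to 10.32, sit above all minimal fusion and MIG arrays, while for Cebpe and Gfi1 the ΔOM-LZ arrays span 2.05 and 1.86 log2 units.

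Cebpa encodes the factor that opens the granulocyte and monocyte path. Its log2 intensity was 9.95, 9.59 and 9.73 in replicates 1, 2 and 3 of the minimal fusion, 10.32, 10.22 and 10.13 with CALM-AF10, 10.01, 10.16 and 9.94 with ΔOM-LZ, and 9.93, 9.97 and 9.81 with MIG. Every CALM-AF10 array lay above every minimal fusion array and every MIG array, while neighbours in the order of the 4 constructs overlapped for CALM-AF10 with ΔOM-LZ, ΔOM-LZ with MIG, and the minimal fusion with MIG. The minimal fusion minus CALM-AF10 was −0.47 (SE 0.11, 95% interval −0.71 to −0.22), a level 1.38-fold lower, with an unadjusted p of 0.0015 that ranked 22 of 23410 and an adjusted p of 0.9999 by limma. CALM-AF10 minus MIG was 0.32 (interval 0.08 to 0.57; unadjusted p = 0.0148 and adjusted p = 0.833 by limma), and the minimal fusion minus ΔOM-LZ was −0.28 (interval −0.52 to −0.04; unadjusted p = 0.0282 and adjusted p = 0.9995 by limma). The minimal fusion differed from MIG by −0.15 (interval −0.39 to 0.10), ΔOM-LZ from MIG by 0.13 (interval −0.11 to 0.38) and CALM-AF10 from ΔOM-LZ by 0.19 (interval −0.06 to 0.43). Over all 4 constructs at once, limma's F test gave Cebpa an unadjusted p of 0.00916, where 4.3% of all probe sets were under 0.05, and an adjusted p of 0.9665, where 0.00854% were. Leaving out any 1 array kept the sign of all 6 differences, and the minimal fusion minus CALM-AF10 then lay between −0.56 and −0.39. In these sorted cultures, as for every level given here, fewer cells of a type and less RNA per cell cannot be told apart.

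Cebpb encodes C/EBPβ, which drives emergency granulopoiesis and macrophage genes. Its level was 8.68, 8.41 and 8.86 in the minimal fusion arrays, 8.52, 8.95 and 9.13 with CALM-AF10, 8.86, 9.30 and 9.13 with ΔOM-LZ, and 8.80, 9.52 and 8.69 with MIG. The highest value was MIG replicate 2 and the lowest minimal fusion replicate 2, and the constructs overlapped in every pair. Its largest difference was the minimal fusion minus ΔOM-LZ, −0.45 (SE 0.23, interval −0.96 to 0.07; unadjusted p = 0.0809, adjusted p = 0.9995 by limma), and the minimal fusion minus MIG was −0.36 (interval −0.87 to 0.16; adjusted p = 0.7695).

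Cebpd encodes C/EBPδ, an acute-phase relative of C/EBPβ. It stood at 7.15, 7.51 and 8.13 in the minimal fusion arrays, 7.13, 7.88 and 7.54 with CALM-AF10, 7.12, 7.94 and 8.20 with ΔOM-LZ, and 7.76, 7.55 and 6.80 with MIG. Replicate 1 was the lowest array of each of the 3 fusions and replicate 3 the lowest of MIG, and all pairs of constructs overlapped. Differences ran from −0.23 (CALM-AF10 minus ΔOM-LZ, interval −1.01 to 0.54) to 0.38 (ΔOM-LZ minus MIG, interval −0.39 to 1.15), each with SE 0.35.

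Cebpe encodes the factor of late neutrophil granule genes. It measured 8.73, 9.38 and 9.29 in the minimal fusion arrays, 8.60, 9.63 and 9.27 with CALM-AF10, 8.01, 9.85 and 10.06 with ΔOM-LZ, and 9.63, 9.48 and 9.17 with MIG. The lowest and the highest array of the 12 both carried ΔOM-LZ, replicates 1 and 3, a span of 4.13-fold, and construct means lay close together, at 9.13 for the minimal fusion, 9.16 for CALM-AF10, 9.31 for ΔOM-LZ and 9.43 for MIG. The minimal fusion minus MIG was −0.29 (SE 0.47, interval −1.32 to 0.74; adjusted p = 0.919 by limma).

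Spi1, the PU.1 gene, held 11.39, 11.89 and 11.80 in the minimal fusion arrays, 11.62, 11.93 and 11.91 with CALM-AF10, 11.58, 12.01 and 12.08 with ΔOM-LZ, and 11.76, 11.83 and 11.32 with MIG. The arrays of all constructs overlapped, and replicate 1 was again the lowest of each fusion and replicate 3 the lowest of MIG. The largest difference was ΔOM-LZ minus MIG at 0.26 (SE 0.19, interval −0.16 to 0.67; adjusted p = 0.9991 by limma), and the minimal fusion minus MIG was 0.06 (interval −0.36 to 0.47).

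Gfi1 encodes a zinc finger repressor that restrains monocyte and stem cell genes in neutrophil precursors. It measured 9.60, 9.93 and 10.01 in the minimal fusion arrays, 8.90, 10.18 and 9.50 with CALM-AF10, 8.50, 10.36 and 9.71 with ΔOM-LZ, and 9.55, 9.32 and 9.20 with MIG. Every minimal fusion array lay above every MIG array, the nearest being 9.60 and 9.55, while the CALM-AF10 and ΔOM-LZ arrays lay on both sides of the MIG arrays. The minimal fusion minus MIG was 0.49, a 1.41-fold higher level (SE 0.42, interval −0.43 to 1.41; unadjusted p = 0.265, adjusted p = 0.8285 by limma), in a fit whose spread for Gfi1 came largely from CALM-AF10 (SD 0.64) and ΔOM-LZ (SD 0.95), against an SD of 0.22 in the minimal fusion and 0.18 in MIG.

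Irf8 encodes a factor that commits progenitors to monocytes and dendritic cells. It stood at 8.32, 8.44 and 9.10 in the minimal fusion arrays, 7.66, 9.08 and 7.72 with CALM-AF10, 8.40, 9.08 and 8.27 with ΔOM-LZ, and 8.70, 8.75 and 7.69 with MIG. Replicates 1 and 3 of CALM-AF10 and replicate 3 of MIG were the lowest arrays, and all constructs overlapped. The minimal fusion minus CALM-AF10 was 0.47 (SE 0.42, interval −0.45 to 1.39) and CALM-AF10 minus ΔOM-LZ was −0.43 (interval −1.35 to 0.49), both with an adjusted p of 0.9999 by limma.

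Klf4 encodes a zinc finger factor that promotes inflammatory monocytes. It measured 6.94, 6.56 and 7.49 in the minimal fusion arrays, 6.62, 7.50 and 7.39 with CALM-AF10, 7.25, 7.47 and 7.79 with ΔOM-LZ, and 6.89, 8.06 and 6.59 with MIG. As for Cebpb, MIG replicate 2 was highest and minimal fusion replicate 2 lowest. The minimal fusion minus ΔOM-LZ was −0.51 (SE 0.38, interval −1.34 to 0.33; adjusted p = 0.9995 by limma), and the minimal fusion minus MIG was −0.19 (interval −1.02 to 0.65).

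**Figure D2:**
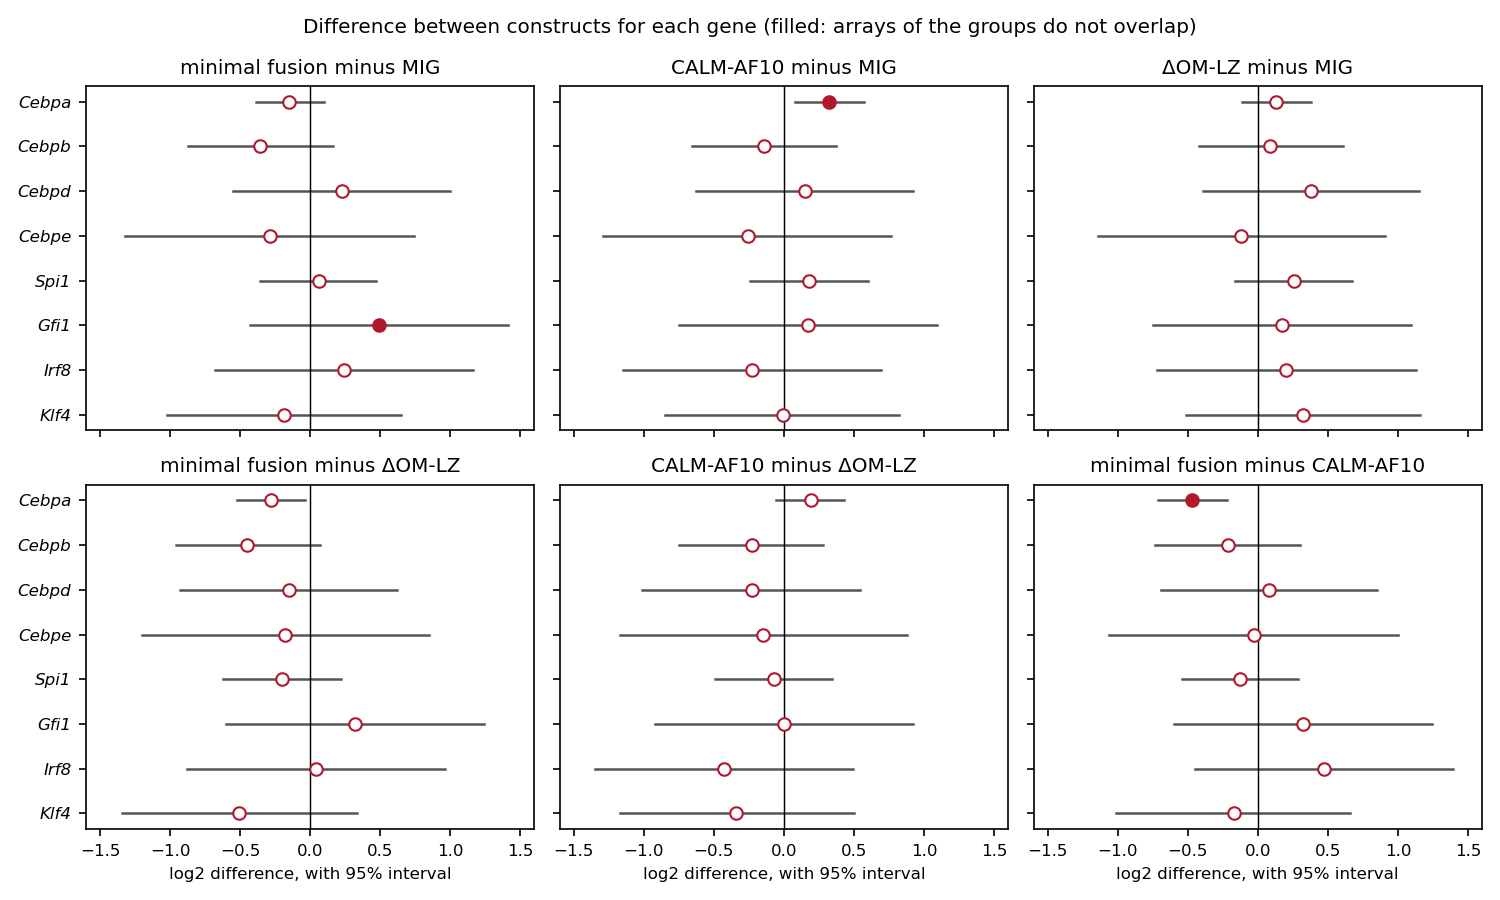
Difference in log2 intensity (horizontal axis) between the constructs named above each panel, first minus second, with its 95% interval from limma, for the 8 genes; filled points mark groups whose arrays do not overlap. The 3 filled points are Gfi1 at 0.49 for the minimal fusion against MIG, and Cebpa at 0.32 for CALM-AF10 against MIG and at −0.47 for the minimal fusion against CALM-AF10.

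Counted over the 8 genes, 0 passed an adjusted p of 0.05 by limma in each of the 6 comparisons. The share of all probe sets that passed was 0.0342% for the minimal fusion against MIG, 0% for CALM-AF10 against MIG, 0% for ΔOM-LZ against MIG, 0.0171% for the minimal fusion against ΔOM-LZ, 0% for CALM-AF10 against ΔOM-LZ and 0.00427% for the minimal fusion against CALM-AF10. At an unadjusted p under 0.05 the count was 1 of 8, Cebpa, for CALM-AF10 against MIG (5.26% of all probe sets), for the minimal fusion against ΔOM-LZ (4.1%) and for the minimal fusion against CALM-AF10 (1.8%), and 0 of 8 for the minimal fusion against MIG (7.61%), ΔOM-LZ against MIG (3.96%) and CALM-AF10 against ΔOM-LZ (2.26%). Fitting with trend and robust variance also gave 0 members past the threshold in all 6. Groups did not overlap for 1 of 8 genes in the minimal fusion against MIG (Gfi1; 12.1% of all probe sets), 1 of 8 in CALM-AF10 against MIG (Cebpa; 9.31%) and 1 of 8 in the minimal fusion against CALM-AF10 (Cebpa; 5.38%). The count was 0 of 8 for ΔOM-LZ against MIG (8.04%), the minimal fusion against ΔOM-LZ (7.78%) and CALM-AF10 against ΔOM-LZ (6.76%). No count above 1 of 8 was reached under any of these rules.

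The size of change that the arrays allow differed by gene. The 95% intervals of Cebpa, Cebpb and Spi1 stayed within 1 log2 unit of 0 in all 6 comparisons, reaching 0.611-fold and 1.48-fold for Cebpa, 0.513-fold and 1.52-fold for Cebpb, and 0.651-fold and 1.60-fold for Spi1. For the other 5 genes they reached further, over the 6 comparisons to 0.497-fold and 2.23-fold for Cebpd, 0.401-fold and 2.0-fold for Cebpe, 0.527-fold and 2.66-fold for Gfi1, 0.392-fold and 2.61-fold for Irf8, and 0.394-fold and 2.23-fold for Klf4. The SD within constructs was 0.12 for Cebpa, 0.25 for Spi1, 0.32 for Cebpb, 0.49 for Cebpd, 0.53 for Klf4, 0.59 for Gfi1 and Irf8 and 0.66 for Cebpe, against a median of 0.18 for all probe sets tested. Cebpa was thus steadier than the median probe set, and the other 7 were more variable, Cebpe more so than 96.9% of all. Between constructs lay 74.4% of the variance of Cebpa, 29.9% for Cebpb and 4.6% to 19.6% for the other 6, with a median of 21.8% over all probe sets. Between replicate numbers lay 9.6% for Cebpa, 45% for Cebpe, 42% for Gfi1, 34.1% for Spi1 and 31.2% for Irf8, and 20.4% for Cebpb, 20.7% for Cebpd and 19.1% for Klf4, with a median of 22.7% over all probe sets.

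MIG replicate 3 was the lowest MIG array for all 8 genes. Replicate 1 was the lowest array for 5 of 8 genes in the minimal fusion, 7 of 8 in CALM-AF10 and 6 of 8 in ΔOM-LZ, and for Cebpd, Cebpe, Spi1 and Gfi1 in all 3 fusions. These 4 arrays were also the ones with the highest mast cell and megakaryocyte markers of their construct. The mean log2 level of 8 mast cell markers, which include the protease gene Cpa3, was 9.83, 9.02 and 9.38 in replicates 1, 2 and 3 of the minimal fusion, 11.02, 9.46 and 9.82 with CALM-AF10, 11.56, 10.09 and 10.06 with ΔOM-LZ, and 9.90, 10.27 and 11.83 with MIG. The mean of 6 megakaryocyte markers was 8.62, 8.02 and 8.10 in the minimal fusion arrays, 9.09, 8.23 and 8.77 with CALM-AF10, 10.12, 9.08 and 8.46 with ΔOM-LZ, and 8.79, 10.14 and 10.24 with MIG. All markers of both lists were above the median level of all probe sets. The part of these cell types in the levels of the 8 genes was not tested. How often other probe sets had the same lowest arrays was not counted. Over all probe sets tested, the replicate 1 arrays of the 3 fusions deviated together from their construct means (r from 0.621 to 0.729).

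**Figure D3:**
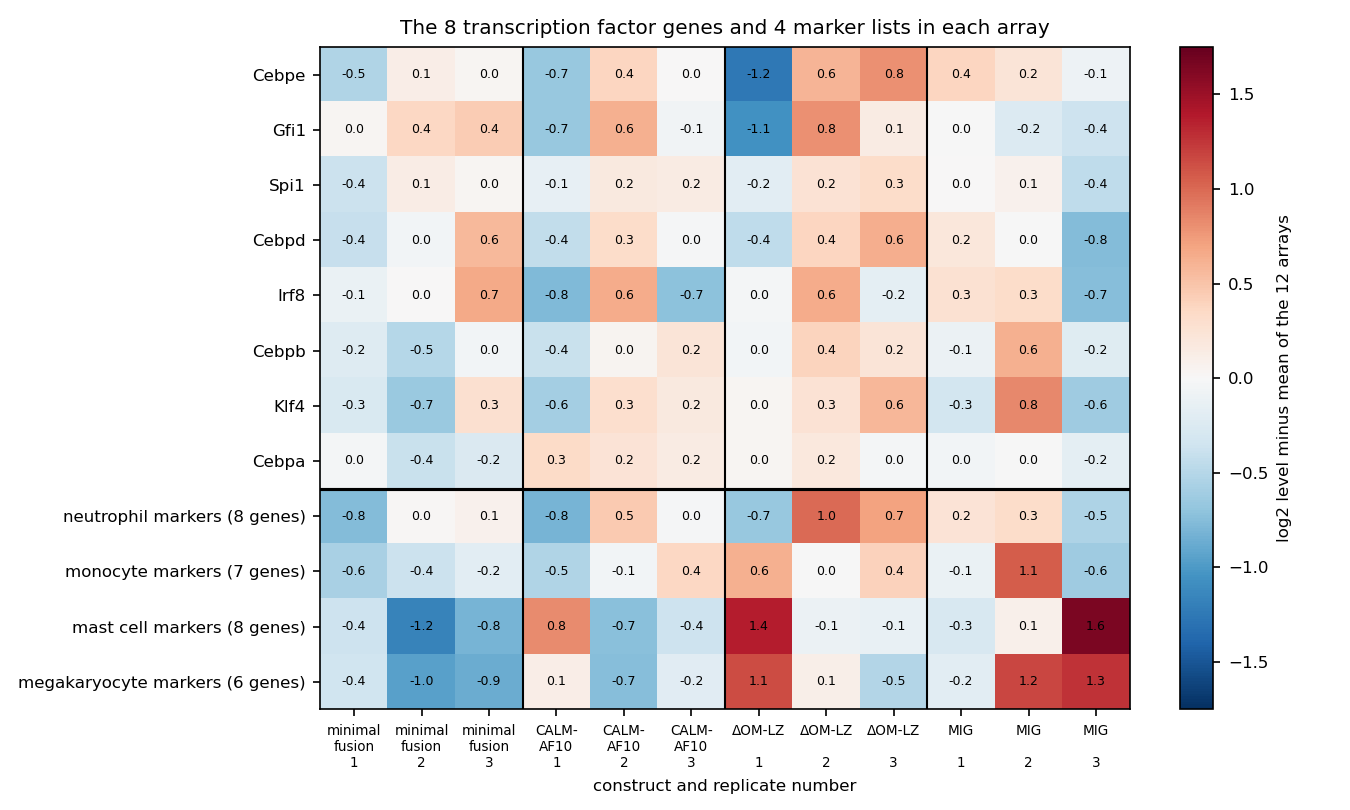
Level of each of the 8 genes, and mean level of 4 marker lists, in each of the 12 arrays (columns, by construct and replicate number), as the log2 difference from the mean of the 12 arrays. The columns for replicate 1 of each fusion and replicate 3 of MIG lie below the mean for Cebpe, Spi1, Cebpd and neutrophil markers, while mast cell markers in them stand above the other arrays of their construct, up to 11.83 in MIG replicate 3.

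Cebpe, Gfi1, Spi1 and Cebpd followed the neutrophil markers from array to array. The mean of 8 neutrophil markers, among them Mpo and Elane of the primary granules and Ltf and Camp of the secondary granules, was 10.09, 10.86 and 10.92 in the minimal fusion arrays, 10.03, 11.30 and 10.83 with CALM-AF10, 10.18, 11.83 and 11.55 with ΔOM-LZ, and 11.09, 11.16 and 10.30 with MIG. Over the 12 arrays Pearson's r with this mean was 0.89 for Cebpe (Spearman's rho 0.94), 0.86 for Spi1 (rho 0.81), 0.85 for Cebpd (rho 0.84) and 0.74 for Gfi1 (rho 0.69), and without the 2 arrays farthest from the gene's median it was 0.93, 0.89, 0.84 and 0.59 in the same order. After subtracting construct means the same 4 values were 0.93, 0.91, 0.90 and 0.92, so the relation lay within constructs. For Cebpa r was 0.03 (rho −0.01), and without its 2 farthest arrays 0.39. With the mean of 13 C/EBPε target genes Pearson's r was lower for all 4 genes, while rho was higher for Spi1. There r was 0.57 for Cebpe (rho 0.74), 0.75 for Spi1 (rho 0.84), 0.62 for Cebpd (rho 0.71) and 0.24 for Gfi1 (rho 0.33). Without the 2 farthest arrays it was 0.81, 0.61, 0.43 and 0.15 in the same order, and on deviations from construct means 0.69, 0.87, 0.81 and 0.61. These correlations describe 12 arrays of mixed cultures, and they carry no p. Over all probe sets tested, same-numbered arrays of CALM-AF10 and ΔOM-LZ deviated together from their construct means (r from 0.697 to 0.729). Minimal fusion replicate 1 did so with replicate 1 of CALM-AF10 (r = 0.717) and of ΔOM-LZ (r = 0.621). MIG replicate 1 ran against replicate 1 of the minimal fusion (r = −0.596), CALM-AF10 (r = −0.475) and ΔOM-LZ (r = −0.509). The part of neutrophil or monocyte content in the levels of the 8 genes was not tested.

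Cebpb and Klf4 had nearly the same profile, with r = 0.90 over the 12 arrays (rho 0.89), 0.82 without minimal fusion replicate 2 and MIG replicate 2, and 0.92 on deviations from construct means. Both followed the mean of 7 monocyte markers, among them the receptor gene Csf1r and the lysosomal gene Cd68, with r = 0.79 for Cebpb (rho 0.79; 0.66 without its 2 farthest arrays) and 0.82 for Klf4 (rho 0.73; 0.71). Both also followed the neutrophil markers, with r = 0.65 for Cebpb (rho 0.73; 0.84 without its 2 farthest arrays) and 0.63 for Klf4 (rho 0.65; 0.74), and the 13 C/EBPε targets, with 0.89 for Cebpb (rho 0.88; 0.91) and 0.83 for Klf4 (rho 0.75; 0.78). On deviations from construct means, r with the monocyte markers was 0.71 for Cebpb and 0.79 for Klf4. With 8 fibroblast and producer cell markers, of which 4 were above the median level, it was 0.82 and 0.84. Over the 12 arrays the values for that list were 0.55 and 0.59, so the relation was not limited to monocyte markers. The mean of the monocyte markers was 8.23, 8.41 and 8.61 in the minimal fusion arrays, 8.26, 8.74 and 9.16 with CALM-AF10, 9.41, 8.78 and 9.20 with ΔOM-LZ, and 8.68, 9.85 and 8.17 with MIG, so MIG replicate 2 was its highest array too. Irf8, also a monocyte factor, had an r of 0.24 with the monocyte markers (rho 0.30), and −0.16 without its 2 farthest arrays. With the neutrophil markers Irf8 had an r of 0.63 (rho 0.64), and 0.43 without its 2 farthest arrays. With the fibroblast and producer cell markers Irf8 had an r of 0.76 (rho 0.84), and 0.71 without the same 2 arrays. Of the other pairs, Cebpd with Spi1 had r = 0.86 (rho 0.79; 0.73 without the 2 arrays farthest for Cebpd) and Cebpe with Gfi1 0.77 (rho 0.69), which was 0.40 without replicate 1 of CALM-AF10 and of ΔOM-LZ. The 7 pairs with Cebpa ran from −0.14 to 0.30.

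**Figure D4:**
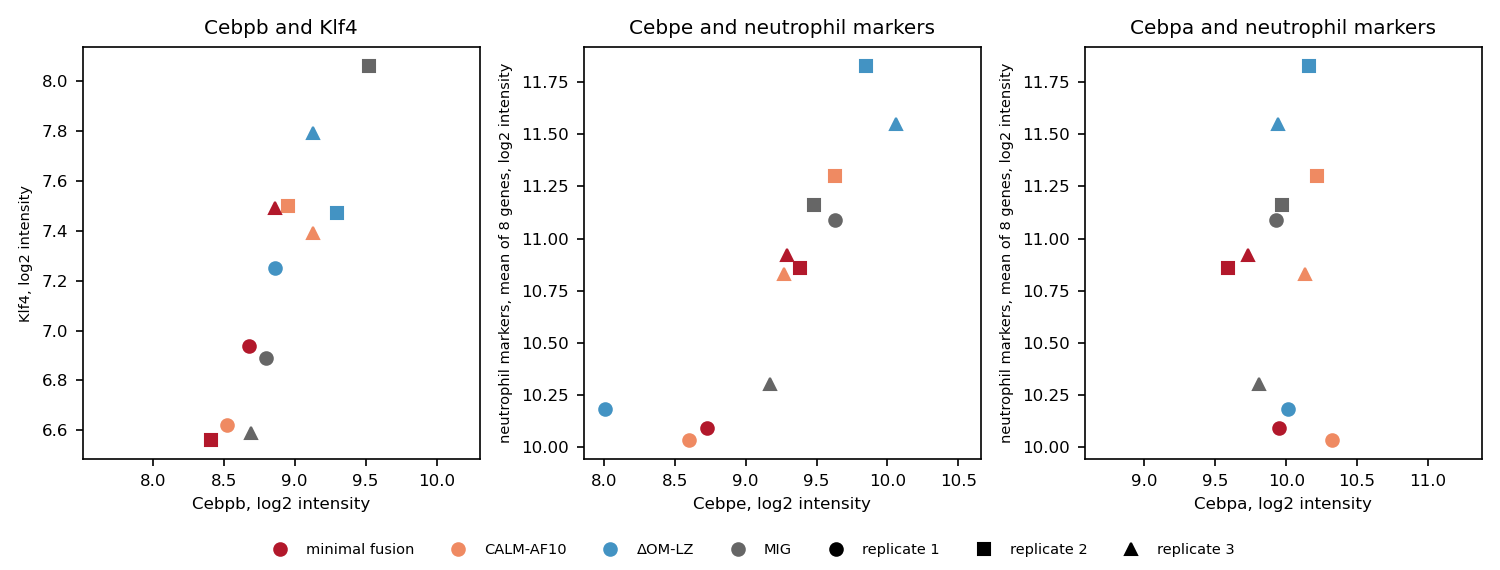
Each point is 1 of the 12 arrays, coloured by construct and shaped by replicate number; axes are log2 intensities, and in the middle and right panels the vertical axis is the mean of 8 neutrophil markers. Klf4 climbs with Cebpb (r = 0.90) and neutrophil markers with Cebpe (r = 0.89), but not with Cebpa (r = 0.03).

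Among 10888 other genes above the median level, the 3 with the highest r to each factor over the 12 arrays were as follows. Cebpe was closest to Anxa3 (annexin A3, a neutrophil protein) and Trem3 (a myeloid receptor), both at 0.95, and Rdh12 (a retinol dehydrogenase) at 0.94. Cebpd was closest to Tcirg1 (a proton pump subunit) at 0.92 and to Wfdc21 and Ncf1 (an NADPH oxidase subunit), both at 0.91. Spi1 was closest to Glrx (glutaredoxin) at 0.96, Arhgdib at 0.95 and Rhog at 0.93. Gfi1 was closest to Recql4 (a DNA helicase) and Hmgn2 (a nucleosome-binding protein), both at 0.96, and Msx1 (a homeobox factor) at 0.95. Klf4 and Cebpb each had the other among their 3, at 0.90, with Kcnn3 (a potassium channel; 0.91 for Cebpb and 0.90 for Klf4), Atp11a (a lipid flippase; 0.94 for Cebpb) and Pld4 (a lysosomal nuclease; 0.92 for Klf4). Irf8 was closest to Tifab at 0.96, and to Lhfp and Col16a1 (a collagen), both at 0.89. Cebpa was closest to Lipe (hormone-sensitive lipase) at 0.87, Tbc1d16 (a Rab regulator) at 0.86 and Pou5f2 (a POU factor) at 0.83. For comparison, 1% of the same genes had an r above 0.59 with Cebpa, 0.81 with Cebpe and 0.87 with Gfi1.

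Other regulators of the same network gave no call. Of 21 measured myeloid regulators, 0 passed by limma in any of the 6 comparisons; against MIG the minimal fusion had 6 above and 15 below 0 (median −0.29, against 0 for all probe sets). The extremes there were Stat3, the cytokine signalling factor, at 0.17 and Cbfb, the RUNX partner, at 0.20, and Zeb2, a repressor needed in monocytes and dendritic cells, at −0.95 and Bcl6, a repressor, at −0.70 (adjusted p = 0.659, 0.672, 0.464 and 0.443 by limma). Of the C/EBP relatives, Cebpg averaged 8.94 in minimal fusion arrays and 9.96 in MIG arrays (difference −1.01, SE 0.46, adjusted p = 0.654), and Ddit3, the stress-induced C/EBP inhibitor CHOP, 8.26 and 9.11 (difference −0.85, SE 0.64, adjusted p = 0.807). Of the Tribbles genes, of which Trib1 and Trib2 encode proteins that promote degradation of C/EBPα, Trib1 differed by 0.19, Trib2 by −0.56 and Trib3 by −1.31 in the same comparison (adjusted p = 0.915, 0.69 and 0.782 by limma), and 0 of the 4 genes on this inhibitor list, Ddit3 included, passed in any of the 6.

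Genes that C/EBP factors, PU.1, Irf8 and Klf4 are known to control gave no call either. All 13 C/EBPε target genes, a list that shares Ltf, Camp, Ngp and Ly6g with the neutrophil markers, stood below 0 in the minimal fusion against MIG (median −0.64), against ΔOM-LZ (median −1.10) and against CALM-AF10 (median −0.55), where the median of all probe sets was 0, 0 and −0.01; Cebpe itself differed by −0.29, −0.18 and −0.03. All 13 also stood below 0 in CALM-AF10 against ΔOM-LZ (median −0.73), and 12 of 13 stood above 0 in ΔOM-LZ against MIG (median 0.49), so a shift of the whole list was not limited to the minimal fusion. Ly6g, a neutrophil surface gene, averaged 8.90 in minimal fusion arrays and 11.12 in ΔOM-LZ arrays (difference −2.22, SE 0.49, adjusted p = 0.4525 by limma), and the lysozyme gene Lyz2 10.89 and 12.68 (difference −1.79, SE 0.45, adjusted p = 0.5605); at the other end S100a8, a calcium-binding protein gene, and the granule gene Ngp both differed by −0.97 (adjusted p = 0.9995). Against MIG the lowest were Chil3, a chitinase-like protein gene, at −1.92 (adjusted p = 0.531 by limma) and Lyz2 at −1.12 (adjusted p = 0.59), and the highest S100a9 at −0.35 and Ngp at −0.48. Of these 13, 6 did not overlap between the minimal fusion and ΔOM-LZ, all lower in the minimal fusion, where 4.09% of all probe sets were non-overlapping and lower. So were 5 of 14 C/EBPα and PU.1 targets, 5 of 13 monocyte genes linked to Irf8 and Klf4, and 5 of 8 mast cell markers. Of 21 other myeloid regulators 5 were non-overlapping and lower and 3 higher, and of 8 neutrophil markers 1 was lower. Of the 14 shared C/EBPα and PU.1 targets, a list that holds Cebpe and Gfi1, 7 were above and 7 below 0 against MIG (median −0.01), from Gfi1 at 0.49 and the granule protease gene Prtn3 at 0.57 to Lyz2 at −1.12 and the Fc receptor gene Fcgr3 at −0.60. Of 13 monocyte genes linked to Irf8 and Klf4, 9 were below 0 against MIG (median −0.30), with Ctss, a cathepsin, at −1.45 and Csf1r at −1.13, and Klf2 at 0.25 and Cst3, cystatin C, at 0.14 at the other end. In all 3 lists 0 genes passed by limma in any of the 6 comparisons.

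The mean level of genes that Gfi1 is known to repress ran against it, and against other members of the group, from array to array. The mean of 8 such genes had an r of −0.90 with Gfi1 over the 12 arrays (rho −0.89; −0.84 without the 2 ΔOM-LZ arrays farthest from the median; −0.91 on deviations from construct means). The same mean also ran against Cebpe (r = −0.79), Cebpd (−0.77), Spi1 (−0.70) and Irf8 (−0.69), so the relation was not limited to Gfi1. Gfi1 in turn had an r of −0.78 with the mast cell markers, −0.69 with the megakaryocyte markers, −0.79 with the 21 other myeloid regulators, and 0.96 with the T and NK cell markers, of which 1 of 7, Nkg7, was above the median level. One of the 8, Hoxa9, passed: it averaged 10.05 in minimal fusion arrays and 8.67 in MIG arrays (difference 1.39, SE 0.11, adjusted p = 0.00132 by limma), where 0.0299% of all probe sets passed as higher. It was also higher than in ΔOM-LZ arrays (difference 1.44, adjusted p = 0.000886 by limma) and CALM-AF10 arrays (difference 1.08, adjusted p = 0.0161 by limma). Gfi1 itself averaged highest in the minimal fusion too, at 9.85, so in construct means Hoxa9 did not run against it there. With only the 2 groups of each comparison fitted, Hoxa9 did not pass (adjusted p = 0.1145 against MIG, 0.05563 against ΔOM-LZ and 0.2744 against CALM-AF10 by limma). Against CALM-AF10 it also did not pass with the replicate block (adjusted p = 0.07668), without any 1 array of the minimal fusion (0.05991, 0.1698 and 0.1669 without replicates 1, 2 and 3) or of CALM-AF10 (0.1137, 0.1532 and 0.1731), or without ΔOM-LZ replicate 3 (0.0575), while the difference stayed between 1.05 and 1.14. The others were below 0 against MIG except Meis1 (0.31, adjusted p = 0.8935), with Id2, an inhibitor of differentiation factors, at −1.57 (adjusted p = 0.555) and the macrophage growth factor gene Csf1 at −0.49 (adjusted p = 0.76).

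The cell types in the cultures were checked by marker genes. All 8 neutrophil, 7 monocyte, 8 mast cell and 6 megakaryocyte markers measured had a mean above the median level of all probe sets, 6.62, as had 2 of 5 erythroid, 1 of 6 eosinophil, 2 of 7 B cell, 1 of 7 T and NK cell and 4 of 8 fibroblast and producer cell markers. Against MIG the minimal fusion had all 8 mast cell and all 6 megakaryocyte markers below 0 (medians −0.94 and −1.07), with medians of −0.21 for neutrophil, −0.30 for monocyte, −0.29 for eosinophil, −0.18 for erythroid, −0.02 for fibroblast, 0.01 for B cell and 0.12 for T and NK cell markers. None of the 9 marker lists had a gene past the threshold by limma in any comparison. Array medians ran from 6.581 to 6.686.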

How the data were processed

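Each deposited value is the log2 intensity of 1 probe set on 1 array. The submitters' processing notes name Affymetrix Expression Console; no version, summarization or normalization was given in the sources used here. That the scale is log2 follows from a range of 2.883 to 14.272. Nothing was renormalized. Of 35556 probe sets, a platform annotation gave 21789 a single symbol and 1621 several; these 23410 were tested.

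The 12 arrays were fitted with 1 mean per construct in limma 3.58.1 (lmFit and eBayes, R 4.3.3; 8 residual degrees of freedom), two-sided, and p-values were adjusted by Benjamini-Hochberg over the 23410 probe sets, with a threshold of 0.05. The 6 pairs of constructs were compared. The fit was tested on simulated data with independent arrays, which cannot check whether the arrays here were independent. Arrays, 3 per group, limit the precision, and p-values set each difference between constructs against the spread between these biological replicates. The main fit took all 12 arrays as independent. Replicate numbers paired arrays of CALM-AF10 and ΔOM-LZ (r of deviations from construct means 0.697 to 0.729), by the data and not the labels.

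The 8 genes and the gene lists (other C/EBP genes, other myeloid regulators, C/EBP inhibitors, targets of C/EBPα and PU.1, of C/EBPε, of Irf8 and Klf4 and of Gfi1, and 9 cell type marker lists) were chosen with earlier results of these data known. Beside the 8, the text names the 2 highest and 2 lowest moderated statistics of a list, and the 3 genes of highest r to each factor; genes named to show what a list holds stand outside that rule. The lists share genes. Alternatives covered scaling, variance model, samples and probe sets fitted, replicate block and leaving out each array.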

Additional observations from a re-analysis of the deposited data

How the results depend on the processing

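Under all 20 alternatives, 0 of the 8 genes passed in any comparison. Of 920 recomputed differences of single genes, 870 kept sign and side of the threshold, and the lowest adjusted p was 0.3145 (Irf8, CALM-AF10 against ΔOM-LZ, replicate block on those 6 arrays, limma). Quantile normalization turned Cebpe in the minimal fusion against CALM-AF10 to 0.0369. Leaving out 1 of the 12 arrays turned the sign of 25 of the 48 differences, none of them past the threshold and none of Cebpa. For the minimal fusion against MIG these were Cebpd (−0.0566 to 0.45), Spi1 (−0.11 to 0.21), Irf8 (−0.11 to 0.43), Klf4 (−0.48 to 0.25). For CALM-AF10 against MIG these were Cebpb (−0.30 to 0.12), Cebpd (−0.14 to 0.34), Cebpe (−0.49 to 0.0203), Gfi1 (−0.16 to 0.48), Irf8 (−0.69 to 0.0198), Klf4 (−0.31 to 0.43). For ΔOM-LZ against MIG these were Cebpb (−0.0617 to 0.35), Cebpe (−0.49 to 0.53), Gfi1 (−0.25 to 0.68), Irf8 (−0.14 to 0.39). For the minimal fusion against ΔOM-LZ these were Cebpd (−0.47 to 0.0701), Cebpe (−0.82 to 0.20), Gfi1 (−0.19 to 0.74), Irf8 (−0.21 to 0.28). For CALM-AF10 against ΔOM-LZ these were Cebpe (−0.79 to 0.23), Spi1 (−0.23 to 0.0259), Gfi1 (−0.51 to 0.42). For the minimal fusion against CALM-AF10 these were Cebpd (−0.19 to 0.30), Cebpe (−0.31 to 0.20), Spi1 (−0.23 to 0.0241), Klf4 (−0.45 to 0.0461). The number of probe sets called over the whole array moved more: for the minimal fusion against MIG it was 8, but 0 with these groups alone, 20 over all probe sets of the file and 1 with a replicate block; for the minimal fusion against ΔOM-LZ 4, but 2 with median centring, 8 with trend and robust variance, 0 alone and 17 over all probe sets; for the minimal fusion against CALM-AF10 1, but 0 alone, 3 over all probe sets and 0 with the block. For CALM-AF10 against MIG it was 0, and 1 over all probe sets; for ΔOM-LZ against MIG 0 and 2; for CALM-AF10 against ΔOM-LZ 0, and 1 with the paired fit (replicate block) of the 6 arrays. Without 1 array these counts ran from 1 to 9 (minimal fusion against MIG), 0 to 1 (CALM-AF10 against MIG), 0 to 4 (ΔOM-LZ against MIG), 1 to 5 (minimal fusion against ΔOM-LZ) and 0 to 1 (minimal fusion against CALM-AF10). Why these counts moved was not tested. A mean over several probe sets was not run, since each gene had 1. Hoxa9 passed under 18 of 19 settings against MIG and against ΔOM-LZ, and under 10 of 19 against CALM-AF10. The block changed no call of the 8 genes.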
